A study of Homo sapiens with 16 samples.

Results

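RS4-11 and KOPN8 are established B-precursor leukemia lines, each with a fusion of the MLL gene (KMT2A): MLL-AF4 in RS4-11 and MLL-ENL in KOPN8, per the labels. Their baseline mRNA levels were compared over 4 of the 16 libraries of a series on 8 blood cancer lines. RS4-11 had 1 library from cells given the Y518R peptide, which binds DPY30, and 1 from cells given the 3R peptide, which does not, and KOPN8 had the same. Every cell compared had therefore received a peptide, and all lines grew in Advanced RPMI with 2.5% fetal bovine serum. The libraries were paired by peptide, 3R with 3R and Y518R with Y518R, and a gene was counted only where RS4-11 differed from KOPN8 in the same direction with both peptides. Each fusion is represented by 1 line, so the tests describe these 2 lines and not the fusions. The labels do not say that the 2 libraries of a line came from separate cultures. The spread behind SEs and p-values is that between the 2 peptide libraries of each of the 8 lines, beyond a shared peptide effect. That spread may be technical, and it may hold peptide responses of single lines, including lines not compared here.

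MLL is a histone H3 lysine 4 methyltransferase. In the fusions its amino-terminal part is joined to AF4 (gene AFF1) or ENL (gene MLLT1), proteins that work with the transcription elongation machinery, and the fusion protein keeps HOXA genes and their cofactor MEIS1 active. B-precursor leukemia cells carry a part of the normal B cell programme, with PAX5 and the signalling chains CD79A and CD79B, and MLL-rearranged forms are known for incomplete B cell identity and, in many patients, for lacking CD10 (gene MME).

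RS4-11 held 43003124 gene counts with 3R and 33244819 with Y518R, and KOPN8 held 23830094 and 30956184. A count of 0 allows up to 3 counts. By library totals, without the TMM scaling explained next, 3 counts are 0.0698 and 0.0902 CPM in RS4-11 and 0.126 and 0.0969 CPM in KOPN8. CPM are read counts scaled to a common library size by TMM (a scaling of library sizes that assumes most genes do not differ), and in every series of values below the 3R library stands before the Y518R library. CPM are not divided by gene length, so they compare a gene between libraries and not 1 gene with another. Of 23230 genes, 13590 passed the filter on low counts and were tested. Tests were edgeR's quasi-likelihood test over all 16 libraries, with Benjamini-Hochberg adjustment over the genes tested. Changes are log2 of RS4-11 over KOPN8 ± SE. The SE was worked back from the test, as the absolute change divided by the square root of its F statistic. For genes with few counts in a line, such as MME, it can be smaller than counting error alone. With 2 libraries against 2, an exact permutation test of a single gene cannot go below p = 0.333, so the precision comes from sharing the spread over genes and lines.

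The lines differed widely, and the difference was nearly the same with either peptide. RS4-11 was higher than KOPN8 for 3830 genes (28.2% of those tested) and lower for 3549 (26.1%). At 2-fold or more in both peptide pairs, RS4-11 was higher for 2048 genes (15.1%) and lower for 1429 (10.5%). These 4 shares are the background for every list below. No gene had an adjusted p under 0.05 with opposite signs in the peptide pairs. That is nearly fixed in advance, because the change is fitted to the same libraries as the pair ratios. Of all tested genes 87.3% had the same sign in both pairs. Opposite signs were seen for 1728 genes, of which 21 were 2-fold or more apart in both pairs. An unadjusted p under 0.05 was reached by 8043 genes. The median change over all tested genes was 0.02. The median absolute log2 ratio between the lines was 0.56 with 3R and 0.54 with Y518R, while between the peptides it was 0.12 within RS4-11 and 0.15 within KOPN8. Between the lines 31.5% of genes with 3R and 30.8% with Y518R stood 2-fold or more apart, against 3.11% between the peptides in RS4-11 and 5.10% in KOPN8. The pairs share no library. How many of all tested genes had no overlap between the lines was not counted, so non-overlap of single genes below is a description.

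**Figure D1:**
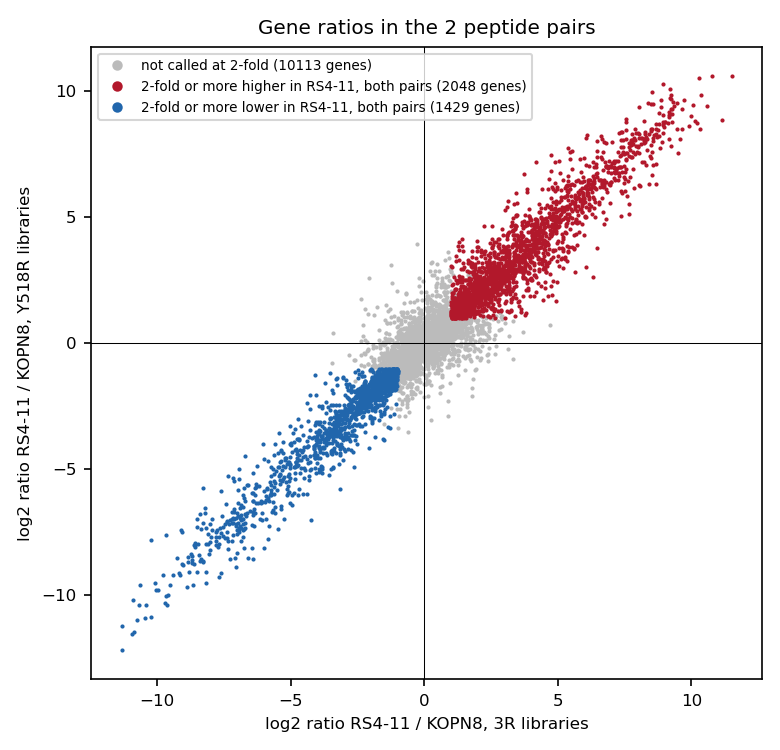
Log2 ratio of RS4-11 to KOPN8 for each of 13590 tested genes, with 3R libraries on the x axis and Y518R libraries on the y axis; red points are the 2048 genes called at 2-fold or more higher in RS4-11 in both pairs, blue points the 1429 called lower. The points follow the diagonal, and grey points lie mostly near the centre.

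The line labels were checked on defining markers. HOXA9 was at 19.9 and 18.9 CPM in RS4-11, against 48.5 and 47.4 CPM in KOPN8, and it had at most 1 count in any library of the 4 lines without an MLL fusion. CD79A was at 420 and 450 CPM in RS4-11, against 499 and 549 CPM in KOPN8. The B cell regulators PAX5 and EBF1 were above 180 CPM in all 4 libraries. Of other lineages, the T cell receptor chain gene CD3D had 3 and 5 counts in RS4-11 and 1 and 1 in KOPN8, and the neutrophil enzyme gene MPO had 11 and 16 counts in RS4-11, against 0 and 1 in KOPN8. These libraries are bulk RNA, so fewer cells expressing a gene and less RNA per cell cannot be told apart in any value below.

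The fusion genes themselves differed modestly. Counts of MLL, and of its partners AFF1 in RS4-11 and MLLT1 in KOPN8, cannot tell the normal from the fused transcript. MLL was at 220 and 214 CPM in RS4-11, against 144 and 143 CPM in KOPN8, a change of 0.60 ± 0.14 (adjusted p = 0.00217). AFF1, the AF4 gene and the fusion partner in RS4-11, was lower in that line, at 260 and 256 CPM against 557 and 540 CPM in KOPN8 (change −1.09 ± 0.11, adjusted p = 2.11e-07). Its relative AFF3, also a known partner of MLL, was lower as well (28.7 and 31.4 CPM in RS4-11, 126 and 137 CPM in KOPN8). MLLT1, the ENL gene and the partner in KOPN8, had 108 and 106 CPM in RS4-11 and 84.9 and 98.9 CPM in KOPN8 and did not pass the test (adjusted p = 0.0883). Of 19 tested genes for the MLL complex, its partners and elongation factors, 3 were higher and 7 lower in RS4-11, with a median change of −0.16. CDK9, the elongation kinase and the most counted of the uncalled genes, had 199 and 184 CPM in RS4-11 and 217 and 232 CPM in KOPN8. Among the called genes ASH2L, the subunit that DPY30 binds, was lower, at 46.8 and 53.9 CPM in RS4-11 and 94.5 and 100.3 CPM in KOPN8 (change −0.95 ± 0.13). DPY30 itself, which the Y518R peptide binds, had 33.9 and 37.2 CPM in RS4-11 and 42.9 and 42.6 CPM in KOPN8 and did not pass (adjusted p = 0.107). In fits that left out 1 library the higher count was 1 or 2.

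HOXA genes other than HOXA7 were lower in RS4-11. Of 11 HOXA genes, which encode homeobox factors of blood stem cells and of the body axis, 10 were lower and each of the 10 was 2-fold or more lower in both pairs, with a median change of −2.39 over the 11. HOXA9, the best known target of MLL fusions, changed by −1.30 ± 0.24 (adjusted p = 0.000294). HOXA10, its neighbour, was at 83.1 and 90.4 CPM in RS4-11, against 367 and 396 CPM in KOPN8. Toward the start of the cluster, HOXA3 was at 10.4 and 7.25 CPM in RS4-11, against 96.1 and 88.5 CPM in KOPN8, and HOXA5 was at 14.1 and 12.7 CPM in RS4-11, against 106 and 105 CPM in KOPN8. HOXA6 was lower to a like degree (2.91 and 2.1 CPM in RS4-11, 23 and 21.8 CPM in KOPN8). HOXA11, active in the developing kidney and limb, had 14 and 3 counts in RS4-11, or 0.316 and 0.0888 CPM, against 112 and 118 CPM in KOPN8 (change −9.03 ± 0.30, adjusted p = 4.55e-13). HOXA7 was the exception, at 13.2 and 16.7 CPM in RS4-11 and 25 and 24.5 CPM in KOPN8 (change −0.74 ± 0.40, adjusted p = 0.136). Its libraries did not overlap between the lines, and in the fit to the 4 libraries alone it was called (adjusted p = 1.87e-05; 1.87e-05 to 0.480 over 14 settings). That fit has 1 residual degree of freedom and called more genes than the main fit, and non-overlap was not counted over all genes. Genes of the cluster overlap one another and antisense transcripts. It is not known whether reads were assigned by strand, so reads of neighbours may be mixed. In the HOXB cluster, which other leukemias express, none of 10 genes passed the filter, and no gene had more than 4 counts in a library.

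**Figure D2:**
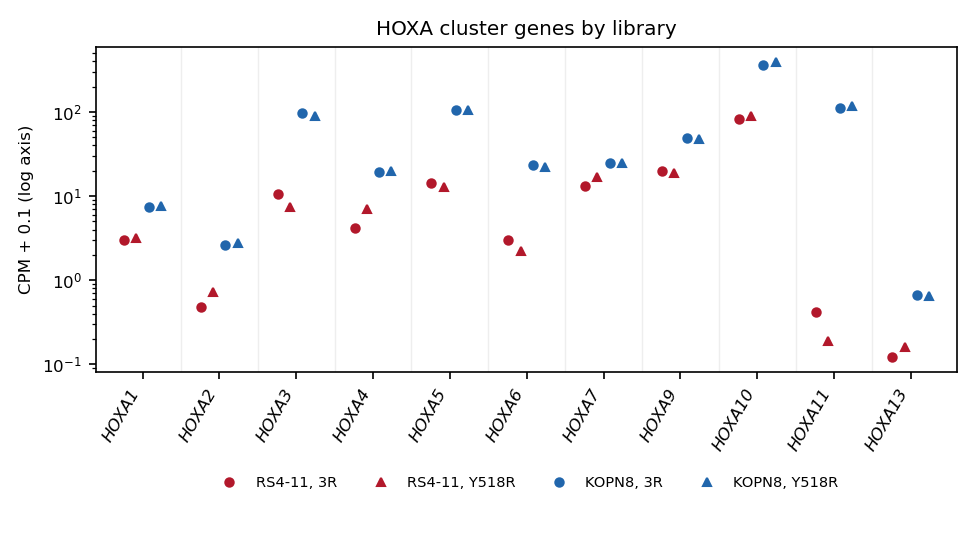
CPM plus 0.1 on a log axis for the 11 HOXA genes in each of the 4 libraries, RS4-11 in red left of KOPN8 in blue; circles are 3R and triangles Y518R. For each gene both RS4-11 points lie below both KOPN8 points, from the small gap at HOXA7 to the widest at HOXA11 (0.316 and 0.0888 CPM in RS4-11, 112 and 118 CPM in KOPN8).

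Other genes bound or kept active by MLL fusions were split between the lines. Of 32 tested, 11 were higher and 14 lower in RS4-11, with 8 at 2-fold or more in each direction and a median change of −0.26. PROM1, which encodes the stem cell surface protein CD133, was at 447 and 431 CPM in RS4-11, against 0.685 and 0.318 CPM in KOPN8 (change 9.82 ± 0.33, adjusted p = 1.13e-12). LAMP5, a lysosomal membrane protein gene, followed with 196 and 181 CPM in RS4-11, against 4.88 and 6.64 CPM in KOPN8. EYA1, a phosphatase and developmental coactivator, had 58 and 52 counts in RS4-11 and none in KOPN8, 26.4-fold higher when KOPN8 is set at 3 counts over both libraries, with a lower exact 95% limit of 21.1. The blood stem cell factor RUNX1 was at 402 and 360 CPM in RS4-11, against 98.0 and 91.4 CPM in KOPN8 (change 2.01 ± 0.12), and the repressor ZEB2 was at 355 and 400 CPM, against 93.6 and 95.5 CPM in KOPN8. BCL2, the survival gene, was also higher (300 and 305 CPM in RS4-11, 141 and 157 CPM in KOPN8, adjusted p = 0.0182). SATB1, a chromatin organiser, went the other way with 35.6 and 35.9 CPM in RS4-11, against 341 and 326 CPM in KOPN8 (change −3.22 ± 0.18). So did RUNX2, a relative of RUNX1, at 43.0 and 42.3 CPM in RS4-11, against 315 and 279 CPM in KOPN8. The germline cyclin CCNA1 was at 4.37 and 4.32 CPM in RS4-11, against 66.9 and 77.6 CPM in KOPN8. REEP3, which keeps membranes off mitotic chromosomes, was at 29.3 and 27.5 CPM in RS4-11, against 162 and 138 CPM in KOPN8.

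MEIS1, the cofactor of HOXA9, was at 115 and 109 CPM in RS4-11, against 187 and 174 CPM in KOPN8, a change of −0.69 ± 0.22 (adjusted p = 0.0163). Both RS4-11 libraries lay below both KOPN8 libraries, but the call was lost in each of the 4 fits that left out a library, and over 14 alternative settings the adjusted p ran between 3.70e-10 and 0.239. MEF2C, a transcription factor of the MLL-fusion programme and the most counted of its uncalled members, had 920 and 963 CPM in RS4-11 and 867 and 782 CPM in KOPN8 (adjusted p = 0.214). Leaving out either RS4-11 library or the Y518R library of KOPN8 took the list's count of lower genes to 9.

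Genes of B cell identity were mostly lower in RS4-11. Of 21 tested transcription factors of the B lineage, 3 were higher and 13 lower, 9 of them at 2-fold or more, with a median change of −0.58. PAX5, which commits cells to the B lineage, was at 187 and 189 CPM in RS4-11, against 328 and 361 CPM in KOPN8 (change −0.88 ± 0.12, adjusted p = 1.13e-05). BACH2, a repressor that acts at the pre-B cell checkpoint, was at 17.5 and 14.2 CPM in RS4-11, against 242 and 250 CPM in KOPN8 (change −3.95 ± 0.21). SPIB, an ETS factor of B cells, was at 27.7 and 26.7 CPM in RS4-11, against 230 and 277 CPM in KOPN8. ETS1 was at 60.7 and 69.0 CPM in RS4-11, against 408 and 425 CPM in KOPN8. IKZF3 (Aiolos), which comes on as pre-B cells mature, was at 0.158 and 0.592 CPM in RS4-11, against 9.27 and 12.7 CPM in KOPN8. For none of these factors did the lines overlap, though most of them were named for their large changes. LEF1, a Wnt pathway factor and the most counted that did not pass, had 581.7 and 596 CPM in RS4-11 and 506 and 511 CPM in KOPN8. EBF1, the partner of PAX5, had 201 and 204 CPM in RS4-11 and 206 and 202 CPM in KOPN8, a change of −0.01 ± 0.24 that did not pass. The largest difference in the other direction was in ERG, an ETS factor of blood stem cells, at 216 and 206 CPM in RS4-11, against 6.45 and 4.96 CPM in KOPN8 (change 5.21 ± 0.26, adjusted p = 6.44e-11). BCL6, a repressor of pre-B and germinal centre cells, was higher too, at 135 and 133 CPM in RS4-11, against 62.6 and 51.4 CPM in KOPN8.

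The genes of recombination and of the pre-B cell receptor did not move as a block. Of 16 tested, 6 were higher and 5 lower in RS4-11, with a median change of 0.19. RAG1, which cuts DNA at antigen receptor genes, was at 185 and 194 CPM in RS4-11, against 11.3 and 8.49 CPM in KOPN8 (change 4.27 ± 0.24, adjusted p = 3.33e-10). Its partner RAG2 had 117 and 118 CPM in RS4-11 and 102 and 97.9 CPM in KOPN8 and did not pass (adjusted p = 0.218). DNTT, the polymerase that adds bases at the joins, was at 4.21 and 4.15 CPM in RS4-11, against 1 and 4 counts in KOPN8 (change 5.51 ± 0.38). The pre-B kinase BLK was higher as well (111 and 110 CPM in RS4-11, 47.6 and 52.6 CPM in KOPN8). The adaptor BLNK, which links the pre-B cell receptor to its signals, was lower, at 10.9 and 13.1 CPM in RS4-11, against 89.3 and 90.3 CPM in KOPN8 (change −2.90 ± 0.20). Among the surrogate light chain genes, VPREB1 was lower (242 and 232 CPM in RS4-11, 428 and 504 CPM in KOPN8), as was the related VPREB3 (6.96 and 8.11 CPM in RS4-11, 17.8 and 23.7 CPM in KOPN8). IGLL1 had 500 and 547 CPM in RS4-11 and 520 and 632 CPM in KOPN8 and did not pass. CD79A was lower by a small margin, −0.27 ± 0.10 (adjusted p = 0.0316), and CD79B was higher, 0.54 ± 0.15 (adjusted p = 0.00579). The CD79A call was lost in all 4 fits that left out a library and in the fit to the 8 MLL-fusion libraries, with adjusted p between 0.000930 and 0.235 over 14 settings. The count of lower genes was 3 in each fit that left out a library.

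At the B cell surface 15 of 20 tested genes were lower in RS4-11 and 3 higher, 12 and 2 of them at 2-fold or more, with a median change of −1.57. MME, the CD10 gene, had 8 and 3 counts in RS4-11, or 0.180 and 0.0888 CPM, against 469 and 444 CPM in KOPN8 (change −11.62 ± 0.25, adjusted p = 5.57e-15). CD24, a surface protein of B precursors, was at 80.7 and 86.7 CPM in RS4-11, against 1417 and 1476 CPM in KOPN8 (change −4.11 ± 0.15). TNFRSF13B, the receptor TACI, was at 0.541 and 0.740 CPM in RS4-11, against 177 and 201 CPM in KOPN8. MS4A1, the CD20 gene, was at 0.248 and 0.799 CPM in RS4-11, against 11.8 and 20.3 CPM in KOPN8. These are markers of later B cell stages or of the CD10-positive precursor stage. They were named for their large differences with both peptides. CD22 was at 140 and 150 CPM in RS4-11, against 439 and 385 CPM in KOPN8. CD9, a tetraspanin of early B cells, was higher in RS4-11 at 338 and 333 CPM, against 27.3 and 30.2 CPM in KOPN8 (change 3.55 ± 0.24). CD74 had 1826 and 1727 CPM in RS4-11 and 2060 and 2102 CPM in KOPN8 and did not pass (adjusted p = 0.209).

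Genes of MHC class II, which presents peptides to helper T cells, showed the same lean, with 10 of 12 tested lower in RS4-11, none higher, and a median change of −1.40. The 250 bases upstream of the start are known to bind RFX and NF-Y, with NF-Y on an inverted CCAAT element (the Y box), and the RefSeq promoter table (GRCh38.p14) holds 11 genes of this list. Searched on both strands of these 250 bases, the Y box CTGATTGG occurred in 4 of the 11 promoters and in 3.98% of 27305 promoters, and its core ATTGG, which lies within it, in 10 of the 11 and in 33.0% of all. A match is a description of the letters and not of binding. Shown are the last 150 bases before the start of 4 genes that were 2-fold or more lower in RS4-11 in both pairs, the peptide-loading pair HLA-DMA and HLA-DMB and the presenting pair HLA-DQA1 and HLA-DQB1, on the gene's strand with matches to ATTGG or CTGATTGG on either strand in capitals.
HLA-DMB (chr6:32941029-32941178, minus strand): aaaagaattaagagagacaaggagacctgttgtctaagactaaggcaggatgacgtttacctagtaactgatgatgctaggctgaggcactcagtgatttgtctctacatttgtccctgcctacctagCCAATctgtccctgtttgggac
HLA-DMA (chr6:32953098-32953247, minus strand): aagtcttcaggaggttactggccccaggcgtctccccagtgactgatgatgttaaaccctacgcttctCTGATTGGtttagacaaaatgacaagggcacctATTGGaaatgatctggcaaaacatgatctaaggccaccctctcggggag
HLA-DQA1 (chr6:32637256-32637405, plus strand): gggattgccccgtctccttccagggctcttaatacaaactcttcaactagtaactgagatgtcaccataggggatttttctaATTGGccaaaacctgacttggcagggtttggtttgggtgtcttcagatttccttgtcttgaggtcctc
HLA-DQB1 (chr6:32666658-32666807, minus strand): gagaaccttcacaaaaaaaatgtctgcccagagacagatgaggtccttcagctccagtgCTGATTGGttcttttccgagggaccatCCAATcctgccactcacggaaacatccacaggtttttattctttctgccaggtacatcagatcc

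HLA-DMB, the first of the promoters above, was at 19.4 and 17.1 CPM in RS4-11, against 476 and 430 CPM in KOPN8 (change −4.64 ± 0.18, adjusted p = 3.56e-12). HLA-DMA, its partner in the protein that loads peptides, was at 61.2 and 55.5 CPM in RS4-11, against 206 and 196 CPM in KOPN8 (change −1.78 ± 0.18). HLA-DQA1 was at 7.14 and 8.20 CPM in RS4-11, against 102 and 107 CPM in KOPN8 (change −3.77 ± 0.19), and HLA-DQB1 at 44.4 and 43.2 CPM, against 167 and 155 CPM in KOPN8 (change −1.88 ± 0.20). HLA-DOB, which restrains peptide loading in B cells, was at 0.496 and 0.385 CPM in RS4-11, against 8.63 and 7.57 CPM in KOPN8. Both the loading and the presenting genes were thus lower, by unequal amounts. CIITA, the coactivator that turns the class on, was lower by a small margin, with 90.9 and 83.5 CPM in RS4-11 and 110 and 122 CPM in KOPN8 (change −0.41 ± 0.16, adjusted p = 0.0352). HLA genes have near-identical copies and vary between people, and the lines' alleles may match the reference unequally, so values of single HLA genes are uncertain and the part of this in the differences was not tested. In class I and antigen processing 6 of 14 genes were higher and 4 lower in RS4-11 (2 lower without its Y518R library), with a median change of 0.14. The peptide-trimming enzyme gene ERAP2 was at 15.4 and 16.5 CPM in RS4-11, against 115 and 104 CPM in KOPN8. B2M, the light chain of class I, had 1536 and 1671 CPM in RS4-11 and 1916 and 1802 CPM in KOPN8 and did not pass.

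**Figure D3:**
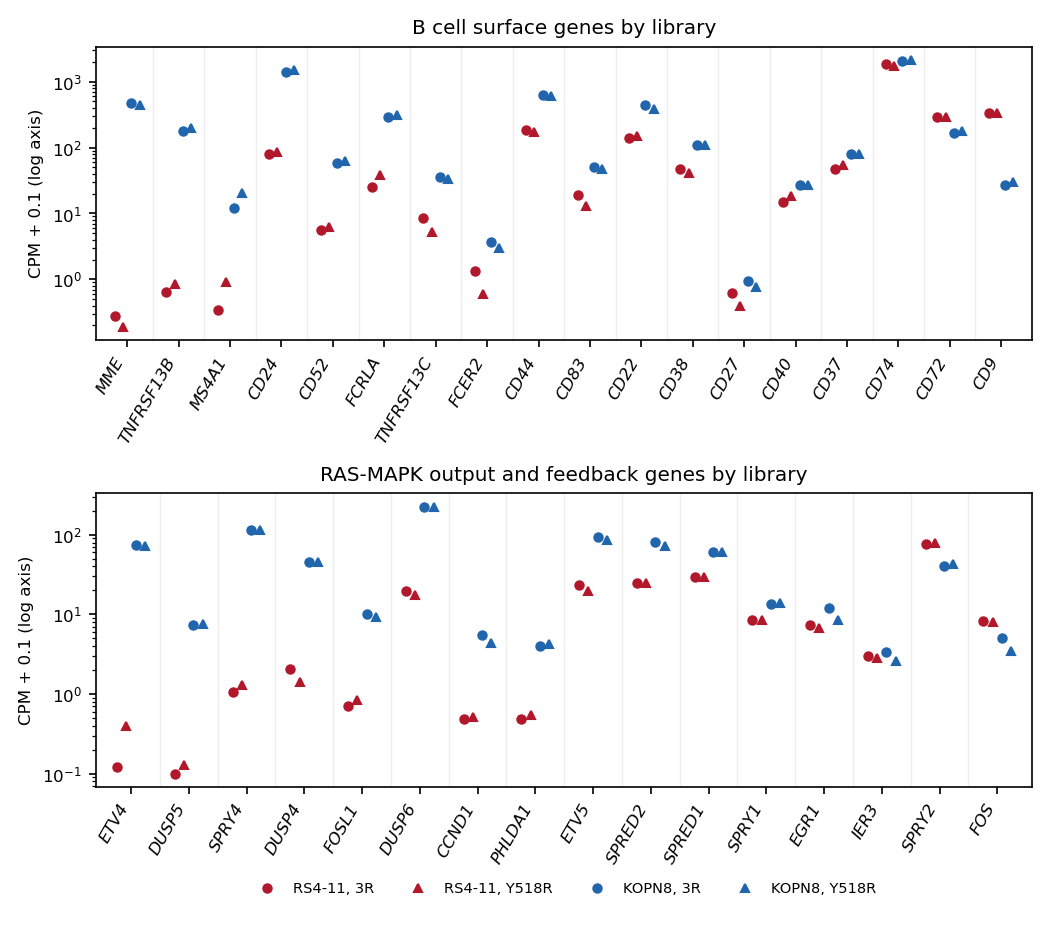
CPM plus 0.1 on a log axis in the 4 libraries, RS4-11 in red left of KOPN8 in blue (circles 3R, triangles Y518R), for most of the tested B cell surface genes (top) and all tested RAS-MAPK output genes (bottom), each ordered by the change. The left of both panels holds genes nearly silent in RS4-11, such as MME (0.180 and 0.0888 CPM, against 469 and 444 CPM in KOPN8) and ETV4 (0.0225 and 0.296 CPM, against 74.8 and 71.8 CPM), and few genes at the right are higher in RS4-11.

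Myeloid genes were the marker list that leaned most toward RS4-11. Of 20 listed, 11 passed the filter, 7 were higher in RS4-11, each at 2-fold or more, and 1 was lower. CEBPA, which drives granulocyte fate, was at 24.6 and 23.3 CPM in RS4-11, against 0.363 and 0.509 CPM in KOPN8 (change 5.74 ± 0.24, adjusted p = 5.92e-12). CSF1R, the macrophage growth factor receptor, was at 19.5 and 21.9 CPM in RS4-11, against 0.242 and 0.0636 CPM in KOPN8. FUT4, which makes the CD15 epitope found on MLL-AF4 blasts, was at 185 and 182 CPM in RS4-11, against 17.9 and 17.9 CPM in KOPN8 (change 3.36 ± 0.18). ITGAM and LYZ were higher from low levels, LYZ at 7.75 and 10.4 CPM in RS4-11, against 1.25 and 0.636 CPM in KOPN8. AZU1, a granule protein gene, did not pass (0.789 and 0.563 CPM in RS4-11, 1.05 and 0.477 CPM in KOPN8). CD33 was the lower member, at 3.47 and 3.08 CPM in RS4-11, against 15.6 and 15.8 CPM in KOPN8. The summed CPM of the list was 293 and 303 in RS4-11, against 50.2 and 50.5 in KOPN8. Most of the RS4-11 sum was FUT4 alone (185 and 182 CPM, against 17.9 and 17.9 CPM in KOPN8). The neutrophil and monocyte genes S100A8, S100A9 and CSF3R had at most 1 count in any of the 4 libraries, and CEBPD at most 4.

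T cell and natural killer markers went both ways. Of 19 listed, 9 passed the filter, 5 were higher and 4 lower in RS4-11, all at 2-fold or more. GATA3, a T cell fate factor, was at 33.5 and 33.7 CPM in RS4-11, against 0 and 2 counts in KOPN8, a pooled ratio of 946 (95% exact interval 262 to 7812, counting error only). ZAP70, a T cell receptor kinase, was at 170 and 163 CPM in RS4-11, against 59.8 and 71.0 CPM in KOPN8. CD7, an early T and natural killer surface protein, had 6 and 0 counts in RS4-11, against 41.9 and 43.9 CPM in KOPN8 (change −9.13 ± 0.52). BCL11B, another T cell fate factor, had 99 and 61 counts in RS4-11, against 1 and 2 in KOPN8, and the costimulator CD28 had 21 and 20 counts, against 2 and 1 in KOPN8. CD3E, a chain of the T cell receptor complex, had 4 and 7 counts in RS4-11, against 80 and 71 in KOPN8, and the kinase LCK was at 38.0 and 38.2 CPM, against 107 and 118 CPM in KOPN8. TCF7, a T cell factor, was at 0.248 and 0.444 CPM in RS4-11, against 24.9 and 26.7 CPM in KOPN8. NKG7, a granule gene of killer cells, was at 69.6 and 77.8 CPM in RS4-11, against 27.3 and 29 CPM in KOPN8, a call lost without the Y518R library of RS4-11 (adjusted p = 0.0739) or the 3R library of KOPN8 (adjusted p = 0.0666; range 7.03e-16 to 0.0739 over 14 settings). Only GATA3, ZAP70, NKG7, CD7, TCF7 and LCK reached 10 CPM in a library. The list summed to 315 and 317 CPM in RS4-11 and 264 and 291 CPM in KOPN8. Of 15 erythroid and megakaryocyte genes 7 passed the filter, 2 higher and 1 lower (1 or 2 higher and 0 to 2 lower when 1 library was left out), and GATA1 had 1 and 0 counts in RS4-11 and 0 and 0 in KOPN8. TFRC, the transferrin receptor, had 338 and 348 CPM in RS4-11 and 322 and 331 CPM in KOPN8. ITGA2B, the platelet integrin chain CD41, was at 23.4 and 22.4 CPM in RS4-11, against 1 and 2 counts in KOPN8, a pooled ratio of 431 (interval 147 to 2092). The part of cells of these other lineages in the results was not tested.

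Genes switched on by RAS-MAPK signalling, most of them feedback inhibitors of it, were lower in RS4-11. Of 16 tested, 11 were lower, all of them at 2-fold or more in both pairs, and 2 were higher, with a median change of −2.66. DUSP6, the phosphatase that shuts off ERK, was at 19.5 and 17.3 CPM in RS4-11, against 225 and 224 CPM in KOPN8 (change −3.60 ± 0.29, adjusted p = 1.92e-07). SPRY4, a Sprouty inhibitor of the pathway, was at 0.969 and 1.21 CPM in RS4-11, against 115 and 115 CPM in KOPN8 (change −6.73 ± 0.52). ETV4, an ETS factor downstream of ERK, had 1 and 10 counts in RS4-11, or 0.0225 and 0.296 CPM, against 74.8 and 71.8 CPM in KOPN8 (change −8.98 ± 0.73). ETV5 was at 23.6 and 19.7 CPM in RS4-11, against 93.5 and 86.1 CPM in KOPN8. The phosphatase DUSP4 was at 1.96 and 1.33 CPM in RS4-11, against 44.8 and 45.5 CPM in KOPN8. DUSP5 had 0 and 1 counts in RS4-11, against 7.34 and 7.50 CPM in KOPN8, a pooled ratio of 0.00172 (95% exact interval 4.35e-05 to 0.00965). For each of these genes both RS4-11 libraries lay far below both KOPN8 libraries. That separation follows from how they were picked, for large changes or with their values seen, and is a description. SPRY2 and FOS were the exceptions: SPRY2 was at 76.2 and 77.7 CPM in RS4-11, against 40.8 and 42.6 CPM in KOPN8, and FOS, an immediate early gene, was at 8.27 and 7.88 CPM, against 4.96 and 3.37 CPM in KOPN8. SPRY1, EGR1 and IER3 did not pass.

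Among cytokine receptors and their kinases 7 of 18 tested genes were higher and 5 lower in RS4-11, with a median change of 0.19. IL6ST, the shared gp130 chain of interleukin-6 type receptors, was at 22.1 and 19.7 CPM in RS4-11, against 0.363 and 0.159 CPM in KOPN8 (change 6.35 ± 0.47). IGF1R was at 88.4 and 79.6 CPM in RS4-11, against 12.9 and 15 CPM in KOPN8 (change 2.59 ± 0.16), and the kinase JAK3 at 66.3 and 70.4 CPM, against 16.8 and 13.4 CPM in KOPN8. FLT3, a growth factor receptor at high levels in MLL-rearranged leukemia, was lower, at 252 and 221 CPM in RS4-11, against 369 and 350 CPM in KOPN8 (change −0.61 ± 0.22, adjusted p = 0.0349). TGFBR2 was at 162 and 151 CPM in RS4-11, against 465 and 442 CPM in KOPN8, and IL4R at 16.9 and 14.5 CPM, against 81.0 and 82.9 CPM in KOPN8. IL7R, the receptor that drives B precursors, had 126 and 140 CPM in RS4-11 and 74.8 and 75.1 CPM in KOPN8 and did not pass (adjusted p = 0.196). INSR, the insulin receptor, had 168 and 178 CPM in RS4-11 and 170 and 152 CPM in KOPN8.

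Homing and adhesion genes were more often lower, 11 of 20 tested against 5 higher, with a median change of −0.73. CCR7, a receptor that guides cells to lymph nodes, was at 2.19 and 1.54 CPM in RS4-11, against 28.5 and 26.2 CPM in KOPN8. ITGAL, the LFA-1 chain CD11a, was at 41.8 and 37.7 CPM in RS4-11, against 379 and 340 CPM in KOPN8 (change −3.18 ± 0.13, adjusted p = 5.40e-12). The integrin ITGB7 and the selectin ligand SELPLG were lower too, ITGB7 at 30.2 and 32.7 CPM in RS4-11, against 171 and 167 CPM in KOPN8. CXCR4, which holds precursors in the bone marrow, was at 155 and 152 CPM in RS4-11, against 414 and 422 CPM in KOPN8. The integrins of matrix adhesion went the other way, with ITGA5 at 129 and 104 CPM in RS4-11, against 55.6 and 48.7 CPM in KOPN8, and ITGB1 at 130 and 142 CPM, against 59.8 and 62.4 CPM in KOPN8. ITGA6, a laminin receptor chain, was higher from a low level (6.56 and 9.09 CPM in RS4-11, 2.42 and 1.49 CPM in KOPN8). VIM, vimentin, had 869 and 948 CPM in RS4-11 and 1071 and 1136 CPM in KOPN8 and did not pass.

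Genes of the cell cycle were lower in RS4-11 by modest amounts. Of 23 tested genes of DNA replication 15 were lower and none higher (median change −0.53), but 3 reached 2-fold in both pairs. Those 3 were RRM2, a subunit of the enzyme that makes deoxynucleotides (177 and 191 CPM in RS4-11, 489 and 512 CPM in KOPN8), and the helicase cofactors GINS3 and GINS4, of which GINS4 was at 15.5 and 15.5 CPM in RS4-11, against 79.6 and 80.8 CPM in KOPN8. Of 20 tested genes of mitosis 15 were lower and 1, TTK, higher (median −0.62). UBE2C, which helps to degrade mitotic cyclins, stood out at 14.1 and 13.6 CPM in RS4-11, against 108 and 106 CPM in KOPN8 (change −2.95 ± 0.15). The spindle gene NUSAP1 and the topoisomerase gene TOP2A were the other 2 at 2-fold or more, TOP2A at 394 and 429 CPM in RS4-11, against 996 and 900 CPM in KOPN8. The kinetochore gene CENPF had 360 and 384 CPM in RS4-11 and 528 and 498 CPM in KOPN8 and just missed the threshold (adjusted p = 0.0516). The proliferation marker MKI67 was at 566 and 641 CPM in RS4-11, against 1005 and 991 CPM in KOPN8 (change −0.73 ± 0.16, adjusted p = 0.00128). The replicative helicase gene MCM7, by contrast, had 822 and 885 CPM in RS4-11 and 834 and 943 CPM in KOPN8 and did not pass. The G2/M list held no higher gene, TTK included, without the Y518R library of either line, with library totals in place of TMM scaling, or in a fit to the 8 libraries of the MLL-fusion lines. In the MYC network and ribosome biogenesis 2 of 22 tested genes were higher and 3 lower, with a median of 0.18; leaving out 1 library gave 1 or 2 higher. MNT, which opposes MYC, was higher (55.4 and 49.1 CPM in RS4-11, 20.8 and 17.3 CPM in KOPN8), and ODC1, the polyamine enzyme, was lower (294 and 304 CPM in RS4-11, 589 and 654 CPM in KOPN8). NCL, nucleolin, had 1862 and 1959 CPM in RS4-11 and 1700 and 1903 CPM in KOPN8, and MYC itself had 322 and 318 CPM in RS4-11 and 279 and 310 CPM in KOPN8 (change 0.12 ± 0.25, adjusted p = 0.713).

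Among the G1 regulators, CDKN2A was lower in RS4-11. CDKN2A, which encodes the CDK inhibitor p16 and the p53 activator ARF, had 1 and 0 counts in RS4-11, against 2726 and 4103 counts (110 and 130 CPM) in KOPN8, a pooled ratio of 0.000105 (95% exact interval 2.67e-06 to 0.000588, counting error only; adjusted p = 1.03e-12). MTAP, the neighbouring enzyme of methionine salvage, had 1 and 1 counts in RS4-11, against 2305 and 2819 in KOPN8. CDKN2B-AS1, on the other side of CDKN2A in RefSeq order and overlapping CDKN2B, had 0 and 0 counts in RS4-11, against 175 and 256 in KOPN8, and CDKN2B itself had 0 and 0 counts in RS4-11 and 2 and 1 in KOPN8. The next expressed gene in the direction of CDKN2B, PLAA, was counted 2651 and 2063 times in RS4-11 and 1455 and 1901 times in KOPN8. On the MTAP side the further genes looked at (MIR31, IFNE, IFNA1, IFNA8 and IFNA2) had 0 counts in all 4 libraries. How far the difference between the lines reaches on that side is therefore not shown. CDKN2A was also under 0.3 CPM in MOLM13, THP1, K562 and JURKAT, and MTAP in THP1, K562 and JURKAT. CDK6, the kinase that p16 inhibits, was higher, at 1299 and 1406 CPM in RS4-11, against 545 and 485 CPM in KOPN8 (change 1.40 ± 0.14, adjusted p = 4.15e-07). CDKN2C (p18) was higher as well, at 159 and 167 CPM in RS4-11, against 65.3 and 74.1 CPM in KOPN8, and CDKN2D (p19) lower, at 42.2 and 40.3 CPM, against 118 and 119 CPM in KOPN8. CCNE1, cyclin E, was higher (13.3 and 13.3 CPM in RS4-11, 4.84 and 5.79 CPM in KOPN8), and CCND1, cyclin D1, lower (0.383 and 0.415 CPM in RS4-11, 5.36 and 4.23 CPM in KOPN8). In all, 3 of 15 tested G1 genes were higher and 9 lower.

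Targets of p53, the tumour suppressor that ARF stabilises, were lower more often than higher, 12 of 20 tested against 2. At 2-fold or more 8 were lower and 2 higher, and the median change was −0.65. Whether this is linked to CDKN2A was not tested. TNFRSF10B, a death receptor, was at 11.0 and 7.49 CPM in RS4-11, against 118 and 109 CPM in KOPN8 (change −3.62 ± 0.17, adjusted p = 2.71e-11). FAS, another death receptor, was lower (5.91 and 5.36 CPM in RS4-11, 18.3 and 19.5 CPM in KOPN8), as was the oxidoreductase gene TP53I3 (0.721 and 0.474 CPM in RS4-11, 8.23 and 9.54 CPM in KOPN8). TP53INP1, a stress gene, was at 0.676 and 0.533 CPM in RS4-11, against 15.6 and 14.6 CPM in KOPN8. MDM2, which degrades p53, was at 136 and 127 CPM in RS4-11, against 319 and 280 CPM in KOPN8 (change −1.19 ± 0.12). SESN1 and PHLDA3 were the higher members, SESN1 at 92 and 91.1 CPM in RS4-11, against 40.0 and 40.9 CPM in KOPN8. CDKN1A, the best known target, had 246 and 222 CPM in RS4-11 and 252 and 284 CPM in KOPN8 (adjusted p = 0.338). In the BCL2 family 3 of 13 tested genes were higher and 4 lower. MCL1, a survival gene, had 231 and 235 CPM in RS4-11 and 286 and 277 CPM in KOPN8 and did not pass. The death inducer PMAIP1 (NOXA) was at 286 and 316 CPM in RS4-11, against 84.5 and 87.5 CPM in KOPN8, and BIK at 4.26 and 3.67 CPM, against 10.8 and 12.6 CPM in KOPN8.

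IGF2BP3, LIN28B and HMGA2, from a list of fetal RNA-binding and let-7 genes, were higher in RS4-11. IGF2BP3, which is normally silenced after birth, was at 87.5 and 91.7 CPM in RS4-11, against 0.161 and 0.254 CPM in KOPN8 (change 8.70 ± 0.23, adjusted p = 5.28e-14). For IGF2BP3, KOPN8 was the lowest of the 8 lines, and P493-6 was the highest at 160 and 159 CPM. LIN28B, which blocks maturation of microRNAs of the let-7 family, was at 18.7 and 17.2 CPM in RS4-11, against 0 and 5 counts in KOPN8 (change 7.58 ± 0.36). HMGA2, a target of those microRNAs, was at 14.7 and 12.9 CPM in RS4-11, against 0 and 2 counts in KOPN8, a pooled ratio of 391 (95% exact interval 108 to 3235). Of the 7 tested members of this list 4 were higher and 2 lower, and the lower count was 1 or 2 when 1 library was left out. IGF2BP2 had 105 and 98.4 CPM in RS4-11 and 124 and 111 CPM in KOPN8 and did not pass.

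Among 14 tested genes of the Polycomb complex PRC2 and of DNA methylation the widest difference was in TET2, an enzyme that oxidises methylcytosine. TET2 was at 35.8 and 33.4 CPM in RS4-11, against 3 and 0 counts in KOPN8, a pooled ratio of 652 (95% exact interval 223 to 3164; adjusted p = 2.34e-11). KOPN8 was the only line of the 8 in which TET2 was under 10 CPM, and of the genes near it in RefSeq order PPA2 had 931 and 1140 counts and INTS12 613 and 715 in KOPN8, while CXXC4, TACR3, ARHGEF38 and NPNT were at 0 in both lines. TET1 had 48 and 63 counts in RS4-11, against 0 and 1 in KOPN8. The Polycomb subunits SUZ12 and EED were lower by small amounts, SUZ12 at 152 and 152 CPM in RS4-11, against 232 and 227 CPM in KOPN8 (change −0.60 ± 0.11). DNMT1, the maintenance methyltransferase, had 402 and 388 CPM in RS4-11 and 426 and 475 CPM in KOPN8 and did not pass. In the list 2 genes were higher and 6 lower, or 3 lower without the Y518R library of RS4-11 or the 3R library of KOPN8.

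The glucocorticoid receptor and its targets were mostly higher in RS4-11, 7 of 10 tested with 2 lower, and a median change of 0.64. NR3C1, the receptor through which steroids kill lymphoid leukemia cells, was at 515 and 527 CPM in RS4-11, against 150 and 149 CPM in KOPN8 (adjusted p = 8.60e-10). NR3C2, the mineralocorticoid receptor, was at 13.8 and 11.7 CPM in RS4-11, against 0 and 2 counts in KOPN8, a pooled ratio of 362 (95% exact interval 99.99 to 2994). TSC22D3 (GILZ), a direct target, was at 171 and 226 CPM in RS4-11, against 69.2 and 75.0 CPM in KOPN8 (change 1.47 ± 0.21). FKBP5, another, was at 219 and 232 CPM in RS4-11, against 170 and 170 CPM in KOPN8. SGK1 was lower, at 18.2 and 22.5 CPM in RS4-11, against 45.2 and 37.9 CPM in KOPN8. DDIT4 had 194 and 213 CPM in RS4-11 and 160 and 161 CPM in KOPN8 and did not pass. Leaving out 1 library gave 0 to 2 lower genes in this list.

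Amino acid and sugar metabolism leaned toward RS4-11. Of 18 tested genes of serine, folate and amino acid supply 9 were higher and 4 lower (median 0.67). SLC7A11, the cystine importer, was at 78.4 and 101 CPM in RS4-11, against 7.70 and 4.55 CPM in KOPN8 (change 3.93 ± 0.63), while ASNS, which makes asparagine and is linked to asparaginase treatment, was lower, at 13.6 and 12.2 CPM in RS4-11, against 100.3 and 99.4 CPM in KOPN8 (change −2.95 ± 0.21, adjusted p = 3.04e-08). DDIT3, a stress response factor, was higher (31.6 and 45.0 CPM in RS4-11, 12.2 and 11.9 CPM in KOPN8), and PHGDH, the first enzyme of serine synthesis, had 286 and 359 CPM in RS4-11 and 200.3 and 224 CPM in KOPN8 (adjusted p = 0.0903). The leucine importer SLC7A5 was at 648 and 726 CPM in RS4-11, against 278 and 324 CPM in KOPN8, and its call was lost in 3 of the 4 fits that left out a library (adjusted p 0.0522 to 0.0778; 2.17e-20 to 0.0778 over 14 settings). Of 23 tested genes of glycolysis and hypoxia 12 were higher and 4 lower (median 0.38), with 2 and 3 at 2-fold or more. PFKFB4 was at 50.1 and 61.7 CPM in RS4-11, against 11.2 and 12.5 CPM in KOPN8, and the enzyme PGK1 at 781 and 825 CPM, against 440 and 491 CPM in KOPN8. VEGFA, the angiogenic factor, was higher too (52.9 and 59.2 CPM in RS4-11, 21.4 and 19.9 CPM in KOPN8), and GAPDH had 2988 and 3093 CPM in RS4-11 and 2615 and 2810 CPM in KOPN8 and did not pass. The enolase ENO2 was lower (2.55 and 1.51 CPM in RS4-11, 20.3 and 20.8 CPM in KOPN8), as was the hypoxia factor EPAS1 (2.28 and 2.55 CPM in RS4-11, 8.99 and 6.99 CPM in KOPN8). BNIP3, a mitophagy gene induced in hypoxia, was at 0.406 and 0.237 CPM in RS4-11, against 16.1 and 18.8 CPM in KOPN8. Of 20 genes of cholesterol and fatty acid synthesis 7 were higher and 3 lower, none at 2-fold in both pairs (median 0.18); 2 reached 2-fold without the Y518R library of either line. FASN, the fatty acid synthase, had 992 and 963 CPM in RS4-11 and 748 and 863 CPM in KOPN8.

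Inflammatory genes were mixed. Of 27 tested interferon response genes 7 were higher and 7 lower in RS4-11, with a median of −0.02. IFITM3, which blocks virus entry, was at 1.19 and 0.355 CPM in RS4-11, against 56.8 and 70.3 CPM in KOPN8, and IFITM1 at 8.93 and 7.43 CPM, against 158 and 163 CPM in KOPN8. IFI44 was at 17.7 and 22 CPM in RS4-11, against 0.282 and 0.381 CPM in KOPN8, and IFIT1 at 14.3 and 16.2 CPM, against 1.13 and 1.21 CPM in KOPN8. The antiviral genes IFIT3 and OASL were higher, IFIT3 at 27.8 and 27.3 CPM in RS4-11, against 10.1 and 8.65 CPM in KOPN8. OAS3 was lower (21.6 and 22 CPM in RS4-11, 92 and 91.4 CPM in KOPN8), as was MX1 (3.99 and 5.36 CPM in RS4-11, 14.4 and 12.8 CPM in KOPN8), while BST2 had 199 and 206 CPM in RS4-11 and 182 and 186 CPM in KOPN8. With 1 library left out, 3 of these calls were lost while the directions held: that of MX1 (change −1.59, adjusted p = 0.0149) without either RS4-11 library or the 3R library of KOPN8, that of IFI44 (change 5.87) without either KOPN8 library, and that of IFIT1 (change 3.70) without the Y518R library of KOPN8 (adjusted p 0.0525 to 0.161 in these fits, and up to 0.220 for MX1 over 14 settings). In these fits the change was −1.71 to −1.02 for MX1, 5.73 and 6.09 for IFI44 and 3.67 for IFIT1. The list's counts were then 3 higher without the Y518R library of KOPN8 and 4 lower without its 3R library. Of 18 tested genes of the NF-kappaB pathway 5 were higher and 6 lower, with a median of −0.30. The neighbouring cytokine genes LTB, LTA and TNF were lower, LTB at 0.225 and 0.266 CPM in RS4-11, against 160 and 146 CPM in KOPN8 (change −9.28 ± 0.48), and TNF at 3.2 and 3.32 CPM, against 68.5 and 59.3 CPM in KOPN8. CCL5, a chemokine, was higher, at 39.5 and 46.5 CPM in RS4-11, against 4.72 and 3.97 CPM in KOPN8 (change 3.31 ± 0.25). BIRC3, an apoptosis inhibitor, was higher from a low level (2.73 and 2.31 CPM in RS4-11, 0.161 and 0.254 CPM in KOPN8), CD83 was lower (18.9 and 12.9 CPM in RS4-11, 50.9 and 47.2 CPM in KOPN8), and RELA, the p65 subunit, had 92.2 and 90.6 CPM in RS4-11 and 93.7 and 105 CPM in KOPN8.

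**Figure D4:**
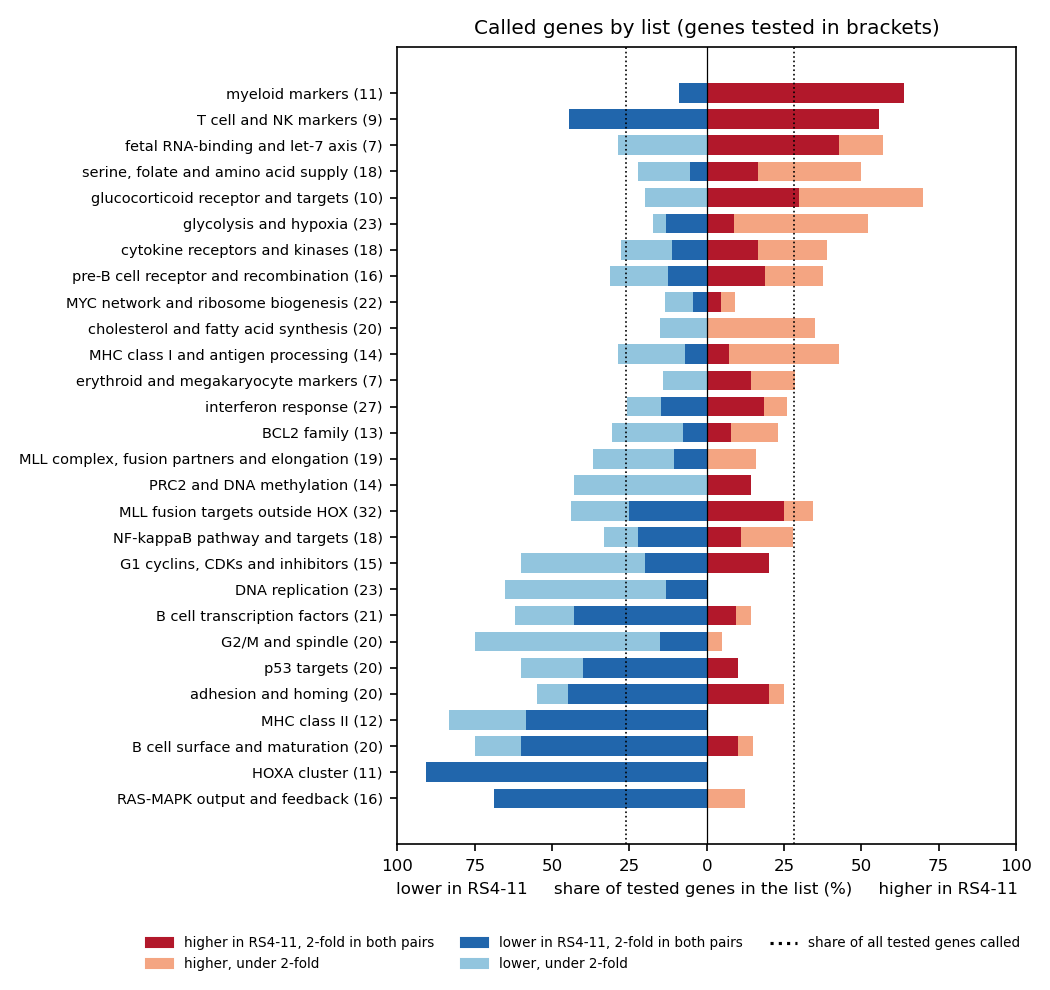
Share of tested genes in each of 28 lists that were called higher (right) or lower (left) in RS4-11 than in KOPN8, in percent, with dark bars for genes at 2-fold or more in both pairs and dotted lines at the shares over all tested genes (28.2% higher, 26.1% lower); lists are ordered by their median change. RAS-MAPK output, HOXA, B cell surface and MHC class II genes stand at the bottom with long bars to the left, and myeloid markers at the top with a long bar to the right.

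Over all genes the largest differences included many that were nearly silent in one line. Of genes at a mean of 10 CPM or more in the higher line, those farthest above KOPN8 included MYH13, CLEC14A, PRSS12, GTSF1, SLC6A13, PRL, PLCB1, MDFI, ADCY6, PDPN, NELL1, ZNF704, TWIST1 and NRP1. Several are known mainly from tissues other than blood. PRSS12, a brain protease, was at 545 and 533 CPM in RS4-11, against 9 and 9 counts in KOPN8 (change 10.70 ± 0.50), and the muscle myosin MYH13 was at 194 and 262 CPM, against 1 and 3 counts in KOPN8. PRL, the pituitary hormone prolactin, was at 119 and 115 CPM in RS4-11, against 1 and 3 counts in KOPN8, and in each of the other 12 libraries it was under 0.3 CPM. NELL1 had 1951 and 1514 counts in RS4-11 and none in KOPN8, 832-fold higher when KOPN8 is set at 3 counts over both libraries (lower exact 95% limit 676), with an adjusted p of 2.44e-08 in edgeR and 0.0514 in DESeq2, the highest of 14 settings (lowest 1.96e-32). TWIST1, a factor of mesenchyme, was at 92 and 85.2 CPM in RS4-11, against 2 and 1 counts in KOPN8, a pooled ratio of 1671 (95% exact interval 572 to 8105).

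Those farthest below included PCDH10, PENK, SPAG6, MME, DTX1, MYO6, TRIB2, CDKN2A, ZDBF2, MTAP, GOLGA8B, ADD2, AKAP12 and AP1S1. PCDH10, a neuronal protocadherin, had 9 and 3 counts in RS4-11, against 695 and 742 CPM in KOPN8 (change −12.14 ± 0.25, adjusted p = 3.21e-15). PENK, which encodes the opioid precursor proenkephalin, had 3 and 4 counts in RS4-11, against 354 and 446 CPM in KOPN8. DTX1, a regulator of Notch signalling, had 2 and 1 counts in RS4-11, against 200.1 and 203 CPM in KOPN8. AP1S1, a subunit of the clathrin adaptor AP-1, had 2 and 1 counts in RS4-11, against 88.6 and 103 CPM in KOPN8, a pooled ratio of 0.000398 (95% exact interval 8.20e-05 to 0.00116), and in the 12 libraries of the other lines it lay between 34.2 and 96.9 CPM. GOLGA8B belongs to a family of near-identical copies, so its value is uncertain.

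Of the genes with the highest CPM among those at 2-fold or more, 5 higher in RS4-11 were PABPC1, CDK6, PPP2R5C, BCAT1 and HSPB1. The poly(A)-binding protein gene PABPC1 was at 3702 and 3940 CPM in RS4-11, against 1630 and 1601 CPM in KOPN8 (change 1.24 ± 0.13), and the heat shock protein gene HSPB1 at 969 and 908 CPM, against 84.4 and 94.3 CPM in KOPN8 (change 3.39 ± 0.26). The 5 lower were ACTB, TCL1A, CD24, GSTP1 and MPEG1. ACTB, beta-actin, was at 2411 and 2604 CPM in RS4-11, against 5421 and 6075 CPM in KOPN8 (change −1.20 ± 0.12, adjusted p = 4.94e-07). TCL1A, a coactivator of AKT in B cells, was at 42.5 and 42.9 CPM in RS4-11, against 1414 and 1585 CPM in KOPN8 (change −5.13 ± 0.16). MPEG1, the macrophage and B cell gene of perforin-2, was at 0.676 and 1.66 CPM in RS4-11, against 1184 and 1320 CPM in KOPN8.

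Genes present in one line and all but absent from the other were counted as those at 10 CPM or more in both libraries of a line and at 3 counts or fewer in each library of the other. RS4-11 alone had 136 such genes and KOPN8 alone 66, against 8238 genes at 10 CPM or more in all 4 libraries. KOPN8 had the shallower libraries, in which 3 counts stand for more CPM, and the part of that in the unequal counts was not tested. Of the 136 RS4-11 genes, 99 were at 10 CPM or more in some library of another line and 37 were not. Of the 66 KOPN8 genes, 50 were and 16 were not.

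Set among all 8 lines, the genes 2-fold or more higher in RS4-11 were of different kinds. For 656 of the 2048, RS4-11 was the highest of the 8 lines, and for 619 KOPN8 was the lowest. The median of the 6 other lines lay nearer to KOPN8 for 1121 of the 2048 (54.7%) and nearer to RS4-11 for 927. Of the 1429 lower genes, RS4-11 was the lowest line for 377 and KOPN8 the highest for 552, and the median of the other lines lay nearer to RS4-11 for 845 (59.1%). These counts include the 4 libraries that chose the genes and are given as a description.

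Along the genome, 2 chromosomes stood apart. Over the 8139 genes at 10 CPM or more in all 4 libraries that RefSeq, matched by symbol, places on a numbered chromosome or the X, the median change was −0.03, and 23% were higher and 27.2% lower in RS4-11. On chromosome 8 the median change of 261 such genes was 0.29, with log2 ratios of 0.35 in the 3R pair and 0.29 in the Y518R pair, and 48.7% of them were higher and 25.7% lower. On chromosome 7 the median of 366 genes was 0.20, with ratios of 0.19 and 0.23 in the pairs, and 41.8% were higher and 30.9% lower, although the HOXA genes of that chromosome were lower. The medians of the other autosomes and the X chromosome lay between −0.13 and 0.04. PABPC1, ZNF704 and PENK lie on chromosome 8, and CDK6 and HSPB1 on chromosome 7. Genes of a chromosome are not independent, so no test is given.

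**Figure D5:**
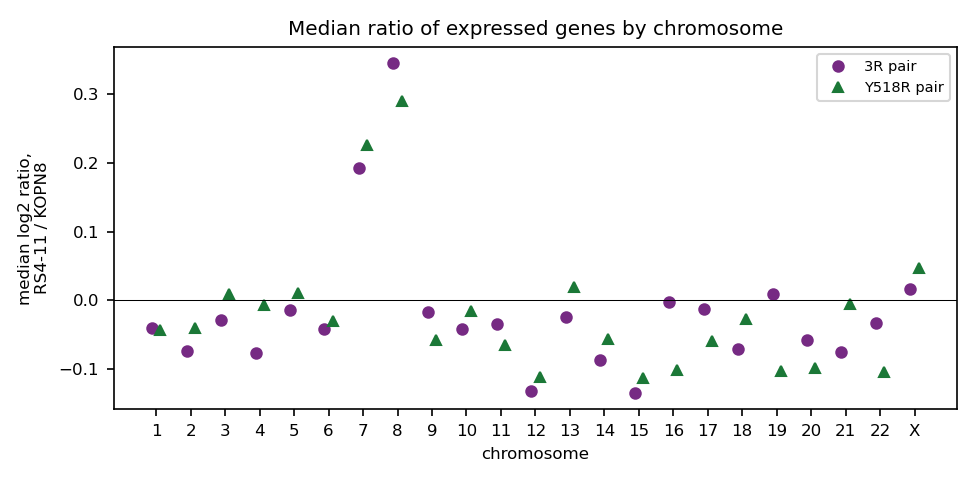
Median log2 ratio of RS4-11 to KOPN8 over the genes of each chromosome that were at 10 CPM or more in all 4 libraries, for the 3R pair (circles) and the Y518R pair (triangles). Chromosome 8 (0.35 and 0.29) and chromosome 7 (0.19 and 0.23) lie above the others in both pairs.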

How the data were processed

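Polyadenylated RNA of 8 lines was sequenced, 1 library per line and peptide (NEBNext Ultra RNA kit), per the labels. The authors deposited whole-number counts of reads per gene, 1 table per library. Tools listed in the submitters' processing notes are TopHat2 2.1.1 and HTSeq 0.6.1, with CASAVA 1.8.4, DESeq and DESeq2 3.0; their order and roles are not stated. The notes list 2 genome builds, GRCh38 and hg19, so no coordinates of the counted genes are given. How long and at what dose the peptides were given, and whether counting used strand, was not stated. The 5 entries that name no gene were kept out; reads with no feature were 21.4% and 20.5% in RS4-11 and 21.7% and 19.0% in KOPN8.

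From the deposited counts, genes were kept by filterByExpr (minimum count 10) on the 4 libraries, and edgeR 4.0.16 (R 4.3.3, with limma 3.58.1) fitted line and peptide over all 16 libraries by quasi-likelihood with TMM scaling, leaving 7 residual degrees of freedom. A call needed an adjusted p under 0.05 and the same direction in both peptide pairs; the 2-fold rule used log2 ratios with a prior count of 2. Fitted changes of genes with few counts depend on that model, so where a line had 3 counts or fewer in all, a ratio of pooled counts with an exact 95% interval or a ratio at 3 counts is given instead in most cases. Intervals and floors cover counting error only. Promoter letters are from RefSeq (GRCh38.p14).

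The comparison and the gene lists were chosen with earlier results of these data known. Genes were named by this rule: the markers and fusion genes, up to 4 genes per list and direction with the largest pair ratios at 2-fold or more and the most abundant uncalled member, the 15 largest changes in each direction, and the 5 most abundant. Others, named for a known role or as neighbours (such as PAX5, EBF1, RUNX1, ZEB2, DUSP6, MDM2, MKI67, MYC and PLAA), were chosen with their values seen. Some genes the rule named are not reported here. Alternatives were other scalings, filters, tools (DESeq2 1.42.0, limma-voom), sample sets, no peptide term, a 4-fold rule and leaving out each library. The fit was also run on simulated counts with the same spread for every gene and no peptide effect. Real libraries differ in this, so nothing here rests on that run. Libraries of one line differed by more than counting noise.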

Additional observations from a re-analysis of the deposited data

How the results depend on the processing

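Over other scalings, filters, tools and sample sets and with each library left out, the genes called higher in RS4-11 numbered 3121 to 4509 and those called lower 2665 to 4254. At 2-fold or more in both pairs they numbered 1621 to 2192 and 1232 to 1515. A 4-fold rule left 1288 higher and 752 lower. Without the peptide as the replicate block, 3869 were higher and 3606 lower; the labels give no replicate numbers, and the peptide is the pairing. Calls higher in RS4-11 made up 50.9% to 55.0% of all calls. Genes named outside the rule, such as FLT3, CIITA, BCL2, PAX5, DUSP6, MDM2 and MKI67, were not followed singly through these settings. Of the 185 genes that the rule named none reversed, and 26 crossed the threshold somewhere, in 23 comparisons losing a call and in 25 gaining one. Most gains came with the fit to the 4 libraries alone, which has 1 residual degree of freedom. That fit also took the interferon genes called lower to 12, against 7, and the MYC network genes called higher to 9, against 2. The cause of the other changes was not tested. Each line has 1 library per peptide, so leaving one out makes the other stand alone with the spread of the other lines. The limits are 1 line per fusion, libraries that may share a culture, a peptide in every sample, no strand setting, and depth. By library totals, without TMM scaling, 3 counts stand for 0.0698 to 0.126 CPM.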
